A study of Ornithorhynchus anatinus with 3 samples.

Results

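Expression levels in platypus ovary were compared with those in cultured platypus fibroblasts, gene by gene across the genome. The genes are the Ensembl genes that are listed in the ovary table and in both fibroblast tables, that lie on a numbered chromosome or on an unplaced Ultra or Contig scaffold, and whose locus spans at least 300 bp. Of the 22369 genes with a position in the ovary table, 20958 were also listed with a value for the fibroblasts. Among these, 2673 loci shorter than 300 bp and 550 loci placed on the X chromosomes or the mitochondrial genome were set aside, and 17735 genes remained. They comprise 2132 genes on 15 numbered chromosomes, 5757 on 637 Ultra scaffolds and 9846 on 7681 Contig scaffolds. Of the Ultra and Contig scaffolds, 6792 hold a single gene.

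The data consist of 3 RNA-seq libraries, made from total RNA of 3 adult platypuses caught in New South Wales. The ovary came from Female1, the male fibroblasts from Male1 and the female fibroblasts from Female2, with RNA integrity numbers of 9.3, 8.9 and 9.9. Both libraries from females carry the label Ovulating. Each group has 1 library, so no difference below has a replicate check or a p-value, and the difference between the 2 fibroblast libraries, which also differ in sex and in individual, serves as the only yardstick of spread. Tissue, individual, cell culture and the unit and layout of the tables differ between ovary and fibroblasts at the same time and cannot be told apart. The software and gene models behind the tables may differ too.

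The ovary is a whole organ of oocytes, of the granulosa and theca cells that surround them and make steroid hormones, and of stroma, vessels and blood. In the platypus the oocyte loads a large yolk before ovulation, since the animal lays eggs. Fibroblasts are the connective tissue cells that secrete collagens and other matrix proteins, and in culture they form a nearly uniform, dividing population. In RNA from a whole organ, fewer cells of a type and less RNA per cell cannot be told apart. The tables do not pair Ensembl identifiers with gene names, and no identifier could be matched to a symbol, so the marker genes of either cell type were not looked up and the genes are described here by their level, position, scaffold and locus length.

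Ovary levels are given in FPKM and fibroblast levels in RPKM, both of which express the number of reads of a gene relative to its transcript length and to the size of the library. For ratios, each library was divided by the median of its own genes above 0 on the numbered chromosomes, which was 13.4 FPKM in ovary, 11.2 RPKM in male fibroblasts and 13 RPKM in female fibroblasts. A log2 ratio of 1 is then a 2-fold difference in the scaled level. Both ovary comparisons use the same ovary library, so they are not independent of each other.

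More genes had a value above 0 in ovary than in the fibroblasts. In ovary 14686 genes (82.8%) were above 0, compared with 12544 (70.7%) in male and 12692 (71.6%) in female fibroblasts. At a level of at least 1 the numbers were 12060, 9989 and 10020, so the ovary listed more genes at this level too. The depth of the libraries is known only in part, and its share in this difference was not tested. The upper quartile of the deposited levels, before scaling, was lowest in ovary. It was taken over the genes above 0 in each library, which are a different set in each. The values were 33.4 in ovary, 38.6 in male and 39.1 in female fibroblasts, and the medians were 10, 10.5 and 10.9.

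Among the 8 combinations of presence and absence, a value above 0 in all 3 libraries was the most frequent, with 11900 genes (67.1%), and 2674 genes (15.1%) were at 0 in all 3. A further 1898 genes (10.7%, 95% Wilson interval 10.3 to 11.2, which covers counting error only) were above 0 in ovary alone. Most of these were low, with a median of 0.565 FPKM, but 763 of them reached at least 1 FPKM. The reverse pattern, a value in both fibroblast libraries and none in ovary, was found for 173 genes (0.975%), of which 42 reached at least 1 RPKM in both. For comparison, 514 genes were above 0 in ovary and female fibroblasts only, 374 in ovary and male fibroblasts only, 105 in female and 97 in male fibroblasts only. A value of 0 in these tables says that a gene is listed at 0, since the reads behind it are not known.

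Among loci of at least 300 bp, the summed level was spread over more genes in ovary than in fibroblasts. The 10 highest genes held 7.7% of the sum over these genes in ovary, 10.6% in male and 9.19% in female fibroblasts. For the 100 highest genes the shares were 24.7%, 29.2% and 26.4%. It took 585 genes to reach 50% of the sum in ovary, 473 in female and 387 in male fibroblasts. The order turned when the loci set aside were included. Over all 20958 joined genes the 100 highest held 89.1% in ovary, 31.4% in male and 27.8% in female fibroblasts. Among the loci set aside, those shorter than 300 bp reached 318000 FPKM in ovary, and the mitochondrial loci of at least 300 bp reached 0.431 FPKM. The part of locus length in these high values was not tested.

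The lists of the most highly expressed genes were largely different. Of the 100 highest genes of the ovary, 27 were among the 100 highest of male fibroblasts and 31 among those of female fibroblasts, whereas the fibroblast libraries shared 79. There were 25 genes in all 3 lists. Among the 10 highest, ovary shared 3 with each fibroblast library and the fibroblast libraries shared 9. The 10 highest ovary genes had a median of 4070 FPKM in ovary, 413 RPKM in male and 732 RPKM in female fibroblasts, and 7 of them were at least 2-fold higher in ovary than in both after scaling, while 1 was at least 2-fold lower. The 10 highest genes of male fibroblasts had medians of 7300 RPKM in male fibroblasts, 5250 RPKM in female fibroblasts and 1330 FPKM in ovary. Their lowest ovary value was 339 FPKM, so that each of the genes that lead in fibroblasts was also well above the median in ovary. The same did not hold the other way, as 9 of the 100 highest ovary genes were below 1 RPKM in both fibroblast libraries, while 1 of the 100 highest genes of either fibroblast library was below 1 FPKM in ovary.

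For the 11900 genes above 0 in all 3 libraries, ovary differed from either fibroblast library more than these differed from each other. The median absolute log2 ratio was 1.22 between ovary and male fibroblasts, 1.05 between ovary and female fibroblasts and 0.44 between male and female fibroblasts, which correspond to 2.33-fold, 2.07-fold and 1.36-fold. Accordingly, 41.8% of the genes were within 2-fold in the first pair, 48.1% in the second and 82.9% in the third. Under each scaling and each filter tried, the value for ovary and male fibroblasts was the highest and that for male and female fibroblasts the lowest. Rank correlations across these genes described the same order, with Spearman's rho of 0.723, 0.752 and 0.971. These genes share their libraries and are not independent replicates. The 2 fibroblast tables also share a unit and a layout, and probably software and gene models.

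**Figure D1:**
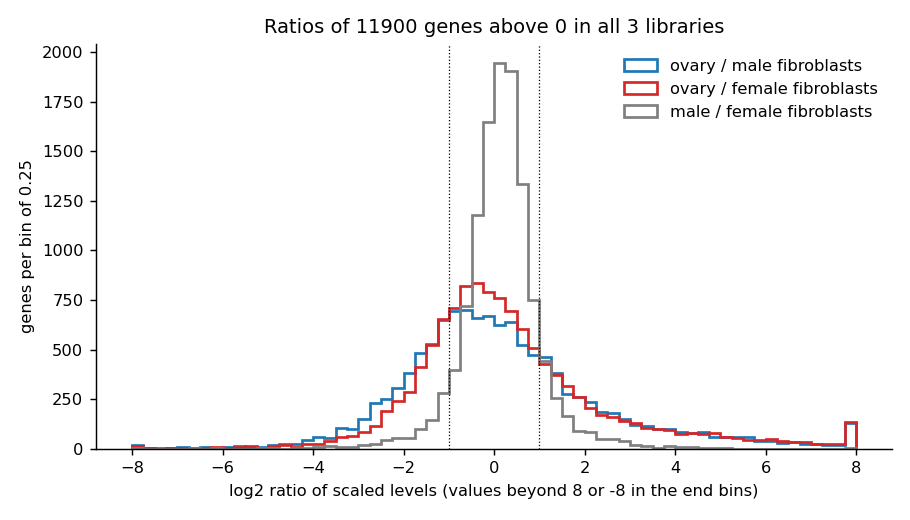
Histograms of the log2 ratio of scaled levels (x axis) over 11900 genes, in bins of 0.25 (y axis: genes per bin), for ovary over male fibroblasts (blue), ovary over female fibroblasts (red) and male over female fibroblasts (grey), with dotted lines at 2-fold. The grey distribution is the narrowest, with 82.9% of the genes between the lines, and both ovary distributions have a long right tail, with a 95% quantile of 4.74 and 4.87.

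The distributions of the ovary ratios were lopsided. Their central parts were nearly symmetric, with quartiles of -1.19 and 1.24 against male fibroblasts and of -0.95 and 1.22 against female fibroblasts, but the 5% and 95% quantiles were -2.84 and 4.74 in the first case and -2.41 and 4.87 in the second. The corresponding quantiles for male over female fibroblasts were -1.14 and 1.48. The medians of the ovary ratios, -0.10 and -0.01, carry no direction, because they follow the choice of scaling. With the median over all genes in place of that over the numbered chromosomes they were 0.23 and 0.16, a shift of more than 0.1, and without scaling 0.16 and 0.03.

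In all, 2866 genes (24.1%) were at least 2-fold higher in ovary than in both fibroblast libraries, and 2529 genes (21.3%) were at least 2-fold lower than in both. As a reference, 1259 genes (10.6%) were at least 2-fold higher in male than in female fibroblasts and 776 (6.52%) at least 2-fold lower. This reference rests on 1 comparison, whereas the ovary calls had to pass 2-fold in both. In the comparison with male fibroblasts alone, 3425 genes were at least 2-fold higher in ovary and 3499 lower. With female fibroblasts alone the numbers were 3353 and 2827. Genes with similar levels in the fibroblast libraries, within 2-fold of each other, made up 2040 of the higher and 2241 of the lower genes. Genes for which the ovary lay within 2-fold of both numbered 4217 (35.4%), and 2288 (19.2%) differed at least 2-fold from only 1 of the fibroblast libraries. The ovary value lay above both fibroblast values for 5130 genes (43.1%), below both for 5430 (45.6%) and between them for 1340 (11.3%).

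The higher and the lower genes sat at different levels. The higher genes had a median of 14.5 FPKM in ovary, 1.26 RPKM in male and 1.51 RPKM in female fibroblasts, which are low values. The lower genes had medians of 32.2 RPKM in male and 29.9 RPKM in female fibroblasts and of 8.22 FPKM in ovary, so that most of them were still well above 1 FPKM where they were lower. Genes at least 2-fold higher in ovary made up 53.1% of all genes called in either direction, a share that depended on the low values. Among the 9373 genes with at least 1 in all 3 libraries it was 40.1% (1433 higher and 2139 lower). For the 12525 genes with at least 1 in any library, compared with a pseudocount of 1, it was 62.0% (3530 and 2166). The scaled values were first multiplied by the mean of the 3 library medians, back to the scale of FPKM, and 1 was then added. The share was also 62.0% (3262 and 2003) with the median over all genes as the scaling factor. Against male fibroblasts alone it was 49.5% (3425 and 3499), and against female fibroblasts alone 54.3% (3353 and 2827). Whether more genes were higher or lower in ovary is therefore not settled by these tables.

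At larger folds the higher genes outnumbered the lower ones. At least 4-fold differences from both fibroblast libraries were found for 1662 higher and 835 lower genes, 8-fold differences for 1049 and 285, and 16-fold differences for 662 and 110. Between male and female fibroblasts the same folds were passed by 304 and 201, 84 and 62, and 33 and 21 genes. The 662 genes had medians of 13.8 FPKM in ovary, 0.152 RPKM in male and 0.157 RPKM in female fibroblasts, so that most of these large folds rest on very low fibroblast values. The 110 genes had medians of 0.323 FPKM, 23.1 RPKM and 21.7 RPKM. Among genes with at least 1 in all 3 libraries the numbers were 548 and 587 at 4-fold, 218 and 151 at 8-fold, and 91 and 37 at 16-fold, so the excess of higher genes was seen from 8-fold on.

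**Figure D2:**
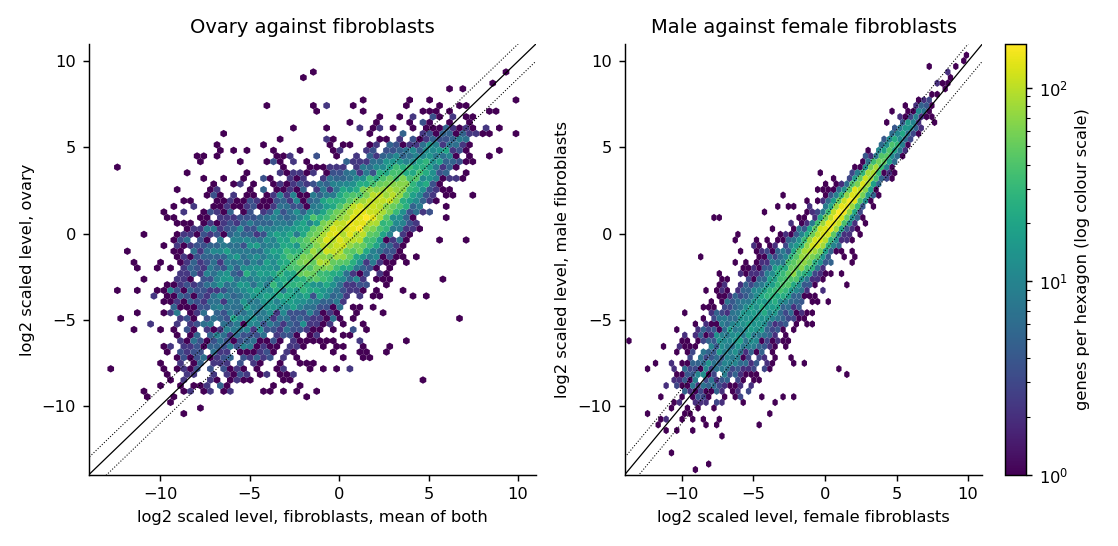
Density of genes by scaled level on log2 axes, for ovary against the mean of both fibroblast libraries (left) and for male against female fibroblasts (right), with the line of equal levels, dotted lines at 2-fold and the number of genes per hexagon as colour on a log scale. The left cloud is wide, with many genes above the lines where fibroblast levels are low, and the right cloud is narrow except at the lowest levels.

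The balance of higher and lower genes changed from low to high expression. When the genes were split into 4 equal groups of 2975 by their mean log level over ovary and fibroblasts, the lowest group had 43.9% higher and 16.9% lower genes, and the highest group 12.3% and 25.1%. The median log2 ratios went from 0.98 against male and 1.04 against female fibroblasts in the lowest group to -0.51 and -0.34 in the highest. In the same groups the share of genes differing at least 2-fold between male and female fibroblasts went from 38.8% to 4.34%. The median absolute log2 ratio between the fibroblast libraries was 0.75 in the lowest group and 0.33 in the highest, compared with 2.11 and 0.98 for ovary and male fibroblasts and 1.86 and 0.83 for ovary and female fibroblasts. In each of the 4 groups, thus, the ovary stood at more than 2 times the distance at which the fibroblast libraries stood from each other, on the log2 scale.

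The ovary table gives an interval for each value, the limits being those of its own software. The median width on 1 side of the value was 14.4% of it. It was 200% for the 164 genes up to 0.1 FPKM and 69.5% for genes above 0.1 and up to 1 FPKM. It was 25.2% above 1 and up to 10 FPKM, 9.71% above 10 and up to 100 FPKM and 4.53% above 100 FPKM. Lower limits stop at 0, so the 200% cannot hold on the lower side. The lower limit was 0 for 478 of the 11900 genes, of which 149 were at most at 0.1 FPKM. For 2297 of the 2866 higher genes (80.1%) the lower limit of the ovary value was also at least 2-fold above both fibroblast values, and for 1937 of the 2529 lower genes (76.6%) the upper limit was also at least 2-fold below both. The fibroblast tables give no interval, so the error of the fibroblast values does not enter these counts. Interval limits of this kind describe the estimation within a library, not the spread between animals.

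Among the genes above 0 in all 3 libraries, those with the largest differences are 4 loci, 2 in each direction. They were chosen by the smaller of their 2 ratios. Genes at 0 in any library were not ranked. Positions are given as in the ovary table, in the assembly of Ensembl release 57, with the first base counted as 1. ENSOANG00000015156, a locus of 5092 bp on Contig25868 from 5598 to 10689, was at 333 FPKM in ovary (interval 315 to 351), 0.0556 RPKM in male and 0.0457 RPKM in female fibroblasts. Its log2 ratios were 12.29 and 12.79. The male value is 1.22 times the female one, which is also the most frequent ratio among the 226 genes with a lower mean fibroblast RPKM, under 0.05 (44 of them). The reads behind these values are not known. ENSOANG00000005134, which spans 91458 bp of Ultra102 from 806011 to 897468, had 193 FPKM in ovary, 0.00856 RPKM in male and 0.000463 RPKM in female fibroblasts, for log2 ratios of 14.20 and 18.63. Its status in the ovary table is FAIL and its interval runs from 0 to 223, so the value was not determined by the software's own standard.

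In the other direction, ENSOANG00000003856, a locus of 9111 bp on Contig15910 from 712 to 9822, was at 0.411 FPKM in ovary (interval 0.0755 to 0.747), 1620 RPKM in male and 1240 RPKM in female fibroblasts. Its log2 ratios were -12.20 and -11.60. It is the gene, among the 100 highest of either fibroblast library, that was below 1 FPKM in ovary. ENSOANG00000000578, on Ultra553 from 2906 to 5288, was at 0.0404 FPKM in ovary (interval 0 to 0.121), 322 RPKM in male and 243 RPKM in female fibroblasts, with log2 ratios of -13.22 and -12.60. For both genes the fibroblast libraries stood close to each other, with male over female log2 ratios of 0.60 and 0.62, which is within 2-fold.

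By scaffold type, the genes of the Contig scaffolds stood lower in ovary than the rest. Against male fibroblasts the median log2 ratio was 0.18 on the numbered chromosomes, 0.12 on the Ultra scaffolds and -0.37 on the Contig scaffolds, and against female fibroblasts it was 0.11, 0.10 and -0.14. The Contig medians were -0.60 and -0.36 among genes with at least 1 in all 3 libraries, and -0.12 and -0.09 without scaling. The numbered chromosomes set the scaling, so their values near 0 follow in part from it. The fibroblast libraries also differed from each other by scaffold type, with medians of 0.02, 0.06 and 0.30 for male over female fibroblasts. At least 2-fold higher genes made up 26.2%, 25.7% and 22.3%, and lower genes 16.3%, 17.7% and 25.3%. Genes of the 3 scaffold types differ in locus length, with medians of 21715, 15995 and 4796 bp over all 17735 genes. They also differ in the share above 0 in all 3 libraries, which was 76.2%, 76.0% and 59.9%.

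For loci of 1 to 100 kb the Contig genes were the lowest within classes of locus length as well. For loci of 1 to 3 kb the medians on numbered chromosomes, Ultra and Contig scaffolds were 0.16, -0.05 and -0.34 against male fibroblasts. Against female fibroblasts they were 0.16, 0.07 and 0.03. For loci of 30 to 100 kb they were 0.43, 0.35 and -0.06 against male and 0.21, 0.19 and -0.14 against female fibroblasts. For loci of 3 to 10 kb the medians against male fibroblasts were -0.03 on the numbered chromosomes (273 genes), -0.21 on the Ultra scaffolds (926 genes) and -0.55 on the Contig scaffolds (2382 genes), and for loci of 10 to 30 kb they were -0.13, -0.02 and -0.41. Against female fibroblasts the medians were 0.18, -0.03 and -0.28 for 3 to 10 kb, and -0.06, -0.01 and -0.26 for 10 to 30 kb. For loci over 100 kb, of which 55 lie on Contig scaffolds, the medians against male fibroblasts were 0.62, 0.59 and 0.45 and those against female fibroblasts were 0.23, 0.32 and 0.36, so that the order of the scaffold types against female fibroblasts did not hold there. It did not hold against female fibroblasts for loci of 300 to 1000 bp either, where the Contig genes were the highest, with medians of 0.44, 0.54 and 0.62.

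Locus length went along with the ratios in a curve rather than a line. The shortest loci, of 300 to 1000 bp, and the longest, over 100 kb, had the highest ovary ratios, with medians of 0.34 and 0.54 against male fibroblasts and of 0.59 and 0.30 against female fibroblasts. Loci of 3 to 10 kb had the lowest, at -0.41 and -0.18. Higher genes made up 32.2% of the shortest class, 21.1% of the 3 to 10 kb class and 34.8% of the longest class, and lower genes 15.1%, 26.3% and 11.5%. The ratio of male to female fibroblasts did not follow this curve but declined with length, from 0.39 in the shortest class over 0.29 at 3 to 10 kb to -0.19 in the longest. The fibroblast libraries thus also differ from each other by locus length.

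**Figure D3:**
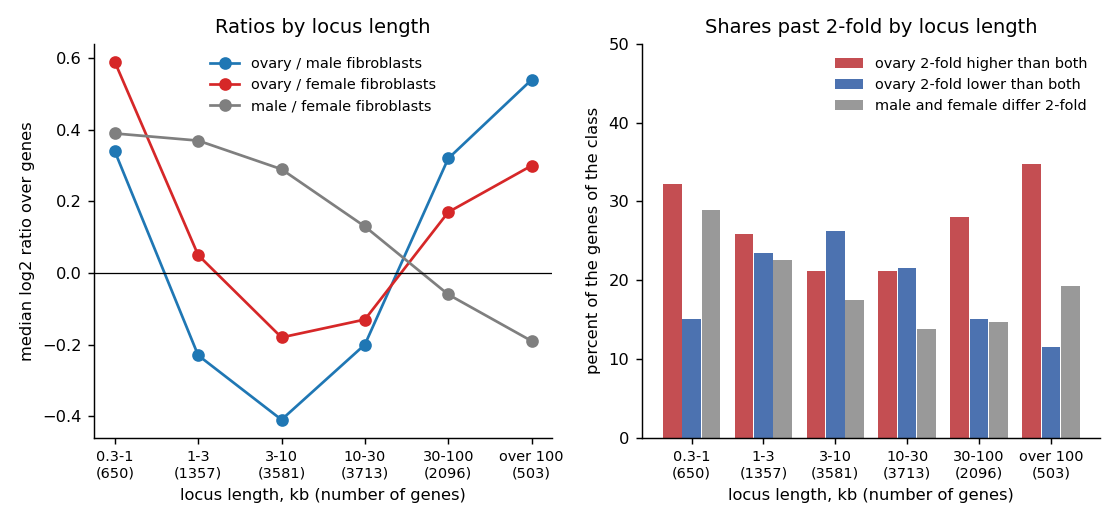
Median log2 ratios (left) and percent of genes past 2-fold (right) in 6 classes of locus length in kb, with the number of genes in brackets. Both ovary ratios are lowest at 3 to 10 kb (-0.41 and -0.18) and higher at both ends, whereas the male over female ratio declines from 0.39 to -0.19.

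Among genes with at least 1 in all 3 libraries the curve was kept but shifted down. The medians were 0.00, -0.57 and 0.21 against male fibroblasts for the shortest class, the 3 to 10 kb class and the longest class, and 0.28, -0.35 and -0.02 against female fibroblasts. The direction for loci over 100 kb against female fibroblasts was therefore turned by leaving out the low values. On the numbered chromosomes alone, the 3 to 10 kb class had a median of 0.18 against female fibroblasts, also opposite in sign to that over all scaffolds. The measure of level differs between the ovary table and the fibroblast tables, and their software and gene models may differ as well. The part of this in the relation to locus length was not tested.

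Chromosomes differed little in their ovary ratios where they hold many genes. On the 6 numbered chromosomes with at least 100 genes, the medians ranged from -0.01 to 0.29 against male and from 0.00 to 0.20 against female fibroblasts, and from -0.06 to 0.10 for male over female fibroblasts. The shares of higher genes there lay between 21.4% and 31.8% and those of lower genes between 9.83% and 20.8%. Chromosome 1, with 173 genes, had both the highest share of higher and the lowest share of lower genes among these 6. Over all 15 chromosomes the medians ranged from -0.91 to 0.96 against male fibroblasts, and from -0.55 to 0.70 against female fibroblasts, but both ends come from chromosomes with few genes. Chromosome 17, with 20 genes, had medians of -0.91 and -0.55, chromosome 14, with 25 genes, 0.96 and 0.42, and chromosome 20, with 13 genes, 0.91 and 0.70. On these the fibroblast libraries differed too, with male over female medians of 0.50, -0.25 and -0.24.

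Chromosome 12 stood apart without such a difference between the fibroblasts. Of its 73 genes, 32 (43.8%) were at least 2-fold higher in ovary than in both fibroblast libraries and 10 (13.7%) were lower. The medians were 0.69 and 0.50, with 0.04 for male over female fibroblasts. Its genes had median levels of 20.8 FPKM in ovary, 7.4 RPKM in male and 9.86 RPKM in female fibroblasts. Chromosome 6, with 84 genes, had 0.54 against male but only 0.19 against female fibroblasts, and its male over female median was -0.13. For each gene the gap between the 2 ovary ratios equals the male over female ratio with its sign turned, so these are not separate observations. Chromosome 11, with 58 genes, had -0.25 and -0.01, with 0.18 between the fibroblasts.

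**Figure D4:**
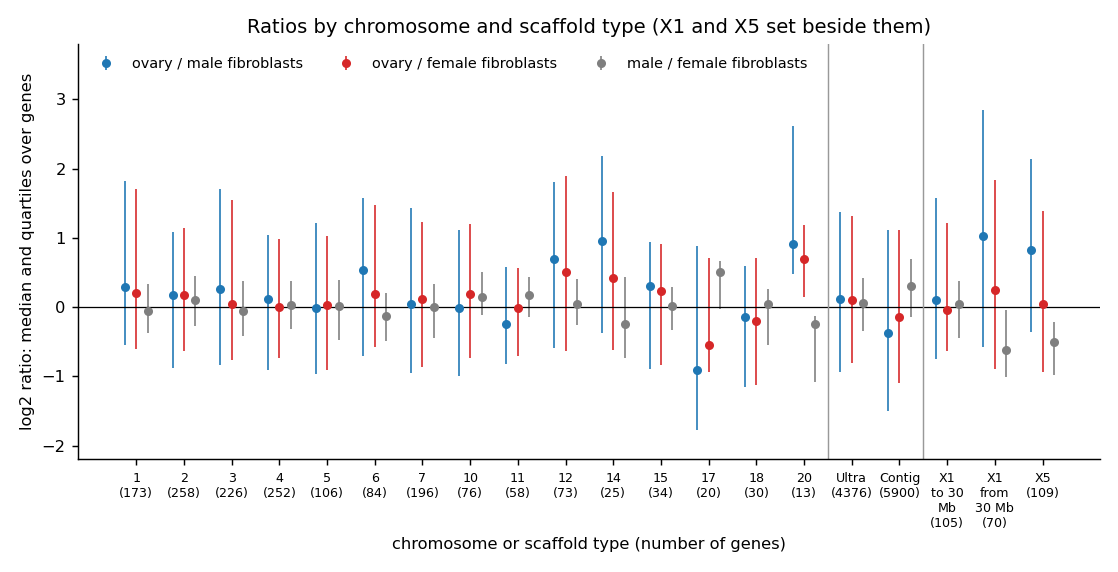
Median log2 ratio (point) and quartiles (line) over the genes of each numbered chromosome, of the Ultra and Contig scaffolds and, set beside them, of X1 and X5, with the number of genes in brackets. Chromosome 12 has medians of 0.69 and 0.50 with 0.04 between the fibroblasts, whereas on X5 the ratio against male fibroblasts is 0.83 and that against female fibroblasts 0.04.

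Genes placed on X1 and X5, which are not among the 17735, served as a comparison. Outside the pseudoautosomal regions the male has 1 copy of X-linked genes and the female 2. The Ultra and Contig scaffolds have no chromosome assigned, so some of the 17735 genes may be X-linked, which was not tested. On X5, with 109 genes above 0 in all 3 libraries, the median was 0.83 against male and 0.04 against female fibroblasts, and on X1 beyond 30 Mb, with 70 genes, it was 1.03 and 0.24. The male over female medians were -0.51 and -0.62. With at least 1 in all 3 libraries (85 genes) the X5 medians were 0.44 and -0.15. On X1 up to 30 Mb, with 105 genes, the medians were 0.10, -0.04 and 0.04. The ratio of ovary to fibroblasts on X5 thus depended on which fibroblast library was the reference by more than on any of the 6 large numbered chromosomes.

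Of the Ultra and Contig scaffolds with at least 10 genes, 132 in number with 3490 genes, 5 had a median at least 2-fold higher in ovary than in both fibroblast libraries and 1 at least 2-fold lower. The 5 are Contig819 with 35 genes (medians 3.42 and 4.23), Ultra532 with 11 genes (2.20 and 2.20), Ultra520 with 14 genes (1.69 and 1.61), Ultra25 with 10 genes (2.70 and 1.38) and Contig263 with 10 genes (1.83 and 1.06). Among the 132, Contig819 and Ultra25 are also the 2 scaffolds with a median difference of at least 2-fold between the fibroblast libraries, with male over female medians of 1.08 and -1.15. The 1 lower is Ultra401 with 10 genes (-1.55 and -1.14). All except Contig819 hold fewer than 15 genes, and they were picked out by these values. Whether Ultra25 or any other of these scaffolds belongs to an X chromosome was not tested.

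Neighbouring genes were hardly more alike in their ovary ratio than genes farther apart. The log2 ratio of ovary to the mean of both fibroblast libraries differed by a median of 1.55 between adjacent genes that do not overlap (6475 pairs), by 1.61 between genes 2 places apart, 1.60 at 5 places, and 1.64 at both 10 and 20 places. Among genes with at least 1 in all 3 libraries the difference was 1.20 for adjacent genes and 1.21 at 20 places. The same measure for male over female fibroblasts was 0.52 for adjacent genes and 0.60 at 20 places. The direction showed a slight tendency to recur. The gene after a higher gene was itself higher in 506 of 1631 cases (31.0%), compared with 25.1% over all pairs, and lower in 14.6%, compared with 18.5%. After a lower gene, the next was lower in 276 of 1217 cases (22.7%) and higher in 21.9%. Without the genes of Contig819 the share of higher genes after a higher gene was 30.3%, compared with 24.8% over all pairs.

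Runs of at least 5 genes in 1 direction, adjacent among the genes compared, were found 17 times for higher genes. These hold 96 genes on 14 scaffolds or chromosomes. Lower genes formed 2 such runs, with 11 genes. Skipped genes can lie inside a run, so a run need not be an unbroken stretch. A run of 5 higher genes on chromosome 6 spans 2730 kb. The longest higher runs lie on Contig819, with 9 genes from 8618 to 61024 and 7 genes from 145397 to 181853. Their loci are short, 312 to 1271 bp, and 2 loci of the second run have the same 3 values as another locus, so that reads may be shared between copies and their levels are uncertain. Over the whole set 8 genes share all 3 values with another locus, and all 8 were called higher.

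A run of 7 higher genes on Ultra117, from 5718990 to 6040624, is of the same length as the second and has loci of 4738 to 48911 bp. In ovary its genes were at 9.57, 10, 17.1, 18.0, 1.21, 12 and 119 FPKM in order along the scaffold. The male fibroblast values were 0.0472, 0.0311, 0.102, 0.0134, 0.0328, 0.0945 and 33.6 RPKM, and the female ones 0.388, 0.508, 1.11, 1.10, 0.0149, 0.218 and 44.4 RPKM. The first 4 genes were near 0 in male fibroblasts and clearly higher in female fibroblasts, with male over female log2 ratios between -6.13 and -2.82, whereas the last was well expressed in all 3 libraries. The log2 ratios of ovary ranged from 1.57 to 10.13 against male and from 1.38 to 6.30 against female fibroblasts.

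The longest lower run, of 6 genes, lies on the same scaffold, from 3079536 to 3526166. Its ovary values were 2.24, 0.126, 7.70, 3.38, 2.52 and 5.18 FPKM. Male fibroblasts had 60.6, 4.58, 20.6, 10.5, 7.73 and 16.2 RPKM, and female fibroblasts 50.6, 1.16, 25.2, 11.3, 7.28 and 17.4 RPKM. For 5 of the 6 genes the fibroblast values lay within 2-fold of each other while the ovary was lower by a log2 ratio of at least 1.57 in size against both. The second gene, which is the lowest in all 3 libraries, differed between the fibroblasts by a log2 ratio of 2.20.

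**Figure D5:**
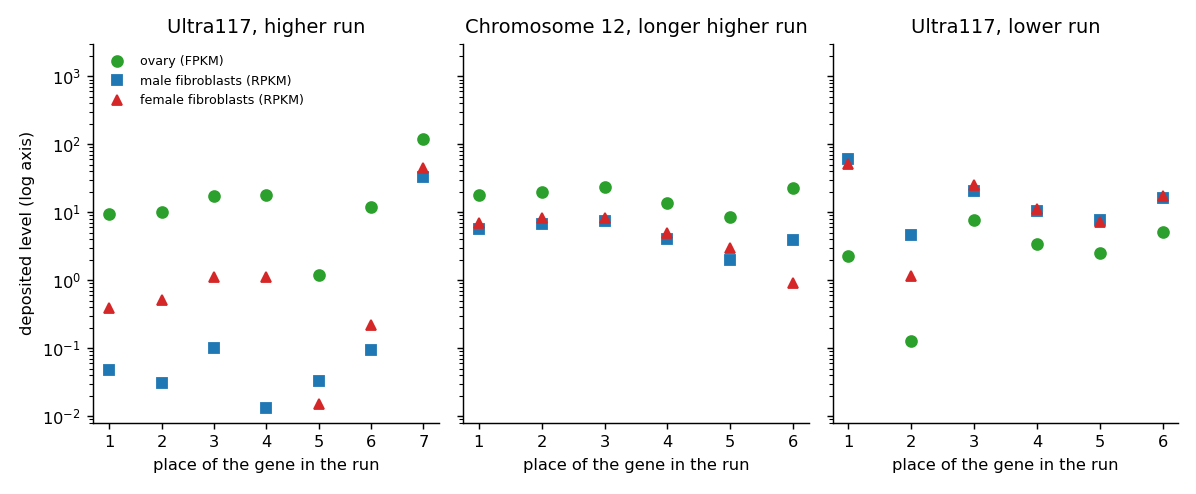
Deposited levels (log axis) in ovary (green circles), male fibroblasts (blue squares) and female fibroblasts (red triangles) for the genes of 3 runs, in their order along the scaffold (x axis). In the higher runs on Ultra117 (7 genes) and chromosome 12 (6 genes) each green point lies above both others, and in the lower run on Ultra117 (6 genes) each lies below both.

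The other lower run, of 5 genes, is on chromosome 4 from 602503 to 2038527. The ovary values were 0.0503, 27.0, 7.84, 29.0 and 23.8 FPKM, the male fibroblast values 7.40, 45.4, 25.8, 96.6 and 70.5 RPKM and the female ones 0.532, 83.0, 39.9, 64.4 and 52.2 RPKM. The first gene differed strongly between the fibroblasts (log2 ratio 4.01), and for the others the male over female log2 ratios lay between -0.65 and 0.80, within 2-fold.

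Chromosome 12 has 2 of the higher runs, as do Contig819 and chromosome 6, whose runs have 5 genes each. The runs on chromosome 12 and the run on Ultra117 were singled out after their values were seen. The longer run on chromosome 12, of 6 genes from 2167565 to 2613479, had 17.9, 19.7, 23.2, 13.5, 8.46 and 22.8 FPKM in ovary. Male fibroblasts had 5.72, 6.84, 7.40, 3.99, 2.01 and 3.91 RPKM and female fibroblasts 7.05, 8.29, 8.37, 4.98, 2.99 and 0.918 RPKM. Its first 5 genes were alike, with ovary ratios between 1.21 and 1.82 and fibroblast libraries that differed by at most 0.36 on the log2 scale. The shorter, of 5 genes from 13694836 to 15134667, had 26.3, 27.9, 1.92, 39.1 and 33.1 FPKM in ovary, with log2 ratios from 2.04 to 6.0 against male and from 1.76 to 5.81 against female fibroblasts.

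As a further difference between the tables, the 11 mitochondrial loci of at least 300 bp, which are not among the genes compared, were between 0 and 0.431 FPKM in ovary, with 8 above 0. In male fibroblasts they ranged from 13.9 to 929 RPKM and in female fibroblasts from 17.9 to 988 RPKM. The part of the tables' processing in this difference was not tested.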

How the data were processed

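For the ovary the authors deposited a gene table of FPKM values with interval limits, a status and a locus. For the fibroblasts the authors deposited RPKM values for 22185 Ensembl genes, in which 7 genes carry the code -1 in place of a value. Per the labels, the libraries followed a directional mRNA protocol. The submitters' processing notes name Bowtie, TopHat 1.0.13 and Cufflinks 1.0.3 without their roles, the annotation was Ensembl release 57, and the genome build is not given in the sources used here. Read numbers and the lengths of the fibroblast gene models were not used here, so depth is unknown beyond the step of low values.

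Repeated identifiers (4 rows) and coded genes were dropped, and tables were joined by identifier. The deposited starts count from 0, so 1 was added. Genes above 0 in all 3 libraries were compared without a pseudocount. A gene was called at least 2-fold higher or lower only against both fibroblast libraries. Genes and lists were chosen with earlier results of these data known. Single genes were named by a rule, the 2 in each direction with the largest smaller log2 ratio, at least 1 FPKM in ovary (higher) or 1 RPKM in both fibroblast libraries (lower), together with the 2 longest runs in each direction. There were no tests. Wilson intervals cover counting error only.

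Alternatives were a minimum of 1 in all 3 libraries, a pseudocount of 1, no scaling, scaling by the median of all genes, by 1000 genes of most conserved rank or by TMM (a mean of log ratios after trimming 30% of ratios and 5% of levels at each end), no minimum length or 1000 bp, status OK only, an ovary lower limit above 0, numbered chromosomes only, either fibroblast library alone and a 4-fold difference. Leaving out loci that share all 3 values was added after seeing the data. Computations were run in Python 3.11.15 (pandas 2.3.3, scipy 1.17.1, numpy 2.4.6), figures were drawn with matplotlib 3.10.9, and the steps were tested on simulated data.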

Additional observations from a re-analysis of the deposited data

Results flagged for a closer look

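Signal was also present in data that the comparison does not use. Of 1404 ovary genes not listed for the fibroblasts, 9 (0.641%) had an ovary lower limit above 0, with a median of 3790 FPKM. The loci of this set are short, with a median of 137 bp. Of 1220 genes listed for the fibroblasts without a position in the ovary table, 84 (6.89%) had at least 1 RPKM in both fibroblast libraries, with medians of 5.74 in male and 4.88 in female fibroblasts. Of the 2673 loci shorter than 300 bp, 259 (9.69%) had an ovary lower limit above 0, with a median of 130 FPKM and a highest value of 318000 FPKM. In the fibroblasts, 297 of these short loci had at least 1 RPKM in both libraries. No control library allowed a background to be set for any of these values.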

How the results depend on the processing

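Each group holds 1 library, so spread between animals is unknown, and low RPKM values can rest on very few reads. No paired analysis was possible because the 3 libraries come from 3 different animals. Counts were taken as kept within 1.5 times, and medians within the 95% binomial interval of the median. Of 139 recomputed values, 74 were kept, 63 moved and 2 reversed. Some of these settings change the number of genes, the fold, the length of the list or the quantity itself. Examples are counts on numbered chromosomes only, counts at 4-fold and the male over female difference between neighbours. Such values can move for that reason alone, so the tally does not measure how stable the results are. With at least 1 in all 3 libraries the higher genes numbered 1433, the median absolute log2 ratios (ovary and male, ovary and female, male and female fibroblasts) were 1.03, 0.86 and 0.37, and the median difference between neighbours was 1.20. With a pseudocount of 1 the ratios were 1.15, 1.01 and 0.29, and with the median of all genes as the scaling factor 1.19, 1.02 and 0.41. Without scaling the first and the third were 1.19 and 0.41. With conserved-rank or TMM scaling the third was 0.41, with a minimum length of 1000 bp 0.42 and with ovary lower limits above 0 it was 0.43. Without a minimum length the first and the second were 1.25 and 1.09. On numbered chromosomes alone there were 425 higher and 264 lower genes, with ratios of 1.06, 0.97 and 0.37, and 61.7% of called genes were higher. At 4-fold there were 1662 and 835 (66.6% higher). Between neighbours, the male over female ratio differed by 0.52. For ovary over female fibroblasts, the median for loci over 100 kb turned to -0.02 with at least 1 in all 3 libraries, and that for 3 to 10 kb to 0.18 on numbered chromosomes alone. The causes were not tested. Without loci that share all 3 values, 2852 genes were higher and 2537 lower.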
